A study of Mus musculus with 6 samples.

Results

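The FHL, PDLIM and CSRP LIM-domain genes were followed here as 10 named genes: Fhl1, Fhl2, Fhl3, Pdlim5, Pdlim7, Ldb3, Csrp1, Csrp2, Lpp and Lmo7. Every chromatin region that the deposited tables assign to one of these symbols was taken, with no choice by its values. This gave 254 of 456310 region entries over 4 tables, each of which compares 2 CUT&Tag libraries, and a region listed in more than 1 table counts in each. Lpp, the gene with the widest span, held 51 of the 120 entries in the first table described below, whereas Fhl3 and Pdlim7 held 2 each.

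LIM domains are paired zinc fingers that bind other proteins. FHL proteins consist of LIM domains alone and shuttle between the actin cytoskeleton and the nucleus. Pdlim5, Pdlim7 and Ldb3 join a PDZ domain, which anchors them to proteins of the actin cytoskeleton, to LIM domains. CSRP proteins bundle actin through alpha-actinin, Lpp is a zyxin-family protein of focal adhesions, and Lmo7 sits at cell junctions and also shuttles to the nucleus. Serum response factor (SRF) binds the CArG box and drives many actin cytoskeleton genes, Fhl2 and Csrp1 among its known targets, while TAZ is a coactivator that reaches DNA through TEAD factors.

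The cells were primary cardiac fibroblasts from mouse heart, the matrix-producing cells that turn into myofibroblasts under transforming growth factor beta. There were 6 libraries in 2 sets, and each set held 1 library per treatment. The libraries of both sets are labelled NC and TGF-b, with TGF-b+SiTAZ as the third of the T set and TGF-b+SiSRF as that of the S set. The labels give no antibody. The study describes CUT&Tag of TAZ and of SRF, so the letters may stand for TAZ and SRF, but this is inferred and the sets keep their letters here. No label gives a genotype, an age or a dose. The series' design text speaks of Tet3 deletion through a Cre virus ahead of TGF-b, and the study's text links the SRF and TAZ experiments to loss of Piezo2, but no sample label states either. With 1 library per treatment no spread between replicates could be estimated, so every comparison below describes 2 libraries and carries no test. In CUT&Tag of a cell population, fewer cells with a factor bound and less binding per cell cannot be told apart.

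Each region has a normalized read density in both libraries of its table. A density is the number of reads in a window of 2 kb around the region plus 1, at 0.5 per read, after an adjustment line had been removed between the libraries. Since all windows have the same length, densities can be set side by side across genes within 1 library and table, but not across tables. The reads behind each density were recovered as whole numbers for 99.96% to 99.99% of regions. Depth was low, with a median of 5 to 10 reads per region and library over all regions. Ratios are given as the log2 of the later treatment over the earlier one. Each ratio carries a 95% interval, made with Wilson's method from the reads of both libraries, which covers counting error only. The median of all regions lay away from 0 in the T set, at -0.65 with TGF-b and 0.97 with TGF-b+SiTAZ, so an interval that excludes 0 there may include that median, or the reverse. Where a lead region's call changes when its ratio is taken relative to that median, this is given beside it as the centred ratio. For other T set regions the printed interval can be read against those medians. Only 2.19% to 5.42% of all regions were called as a peak in both libraries of their table. A call in 1 library favours a higher value there. The ratio of such a region, also with an interval clear of 0, is a description only.

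The promoters of the members were looked up first, because SRF has a defined binding sequence. RefSeq promoters (GRCm38.p6), 250 bases before to 50 after the start, were matched by symbol for 9 of the 10 genes, as 16 promoters. The CArG box, searched on both strands, was present in 5 of these 16, in Fhl1, Fhl2 and Ldb3, and in 1.63% of all 32851 promoters of that length. Both Ldb3 promoters overlap and share 1 match, so the 5 promoters hold 4 separate ones. The TEAD core GGAATG was present in 1 of the 16 (Lpp; 14.7% of all promoters) and the AP-1 site TGANTCA in 2 of the 16 (both Ldb3, at overlapping starts; 7.81% of all promoters), with N standing for any base. A match is a description of the letters and not a site of binding.

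The 250 bases before the start are shown for 3 genes whose promoter carried a listed region: Fhl2 (chr1:43163962-43164211, minus strand), Ldb3 (chr14:34588682-34588931, minus strand) and Pdlim5 (chr3:142395697-142395946, minus strand), all on GRCm38.p6. Capitals mark a match to the CArG box or to TGANTCA, and the Pdlim5 promoter had none.
Fhl2: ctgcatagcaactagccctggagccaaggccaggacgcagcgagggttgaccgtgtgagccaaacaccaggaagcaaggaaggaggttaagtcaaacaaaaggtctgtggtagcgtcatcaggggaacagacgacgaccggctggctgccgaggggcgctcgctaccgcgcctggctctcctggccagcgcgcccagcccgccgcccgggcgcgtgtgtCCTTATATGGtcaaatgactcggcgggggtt
Ldb3: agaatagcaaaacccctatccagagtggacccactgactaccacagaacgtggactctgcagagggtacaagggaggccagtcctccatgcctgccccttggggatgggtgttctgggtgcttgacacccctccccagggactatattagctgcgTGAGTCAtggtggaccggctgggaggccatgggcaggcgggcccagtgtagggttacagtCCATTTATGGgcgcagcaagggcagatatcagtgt
Pdlim5: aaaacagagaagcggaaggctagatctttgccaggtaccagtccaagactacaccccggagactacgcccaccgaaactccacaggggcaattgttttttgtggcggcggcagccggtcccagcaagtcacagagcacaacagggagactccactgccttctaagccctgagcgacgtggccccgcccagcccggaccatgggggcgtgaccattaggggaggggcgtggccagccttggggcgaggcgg
The CArG letters began 31 bases before the start in Fhl2 and 35 in Ldb3, where the TGANTCA match began at 95. The other CArG matches are shown with 10 bases on either side: the upstream Fhl2 promoter (chr1:43196838-43196867, minus strand) and an Fhl1 promoter (chrX:56779571-56779600, plus strand), both on GRCm38.p6. No listed region lay within 1 kb of either of these starts.
Fhl2, upstream start: catttagagaCCAAAAAAGGcttgcaggag
Fhl1: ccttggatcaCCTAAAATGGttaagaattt

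The first comparison asks how the signal at these genes differed between the TGF-b and the NC library. In the T set, 14 of 120 member regions (11.7%) were at least 2-fold higher with TGF-b, beside 17.3% of all 170890 regions, and 56 (46.7%) were at least 2-fold lower, beside 42.1%. The median log2 ratio was -0.84 over the members and -0.65 over all regions. Relative to the latter 27 member regions were at least 2-fold higher and 37 lower. The shares of all regions on that scale are not given, so these 2 counts have no background beside them. Which library a region had been called in went with its direction: 89 of the 120 were called only in the NC library, and 55 of the 56 lower regions were among them. The table as a whole had the same pattern, with 68.9% of all regions called only in NC and 69677 of its 71977 lower regions among them. The 12 member regions called in both libraries had a median of -0.23, with 1 higher and 1 lower, beside a median of -0.001 with 1052 higher and 1109 lower among the 9267 regions of the table called in both. In 45 of the 120 regions (37.5%) one library held 3 reads or fewer, beside 49.3% of all regions.

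Among S set regions, 7 of 23 member regions (30.4%) were at least 2-fold higher with TGF-b, beside 17.4% of all 52723 regions, and 5 (21.7%) were at least 2-fold lower, beside 26.7%. Its median log2 ratio was -0.24, against -0.20 over all regions, and 0.32 without the authors' line, so its direction depended on that line. When reads of 3 or fewer were set to 3, the count of higher regions went from 7 to 4. All 7 higher regions were among the 12 called only in the TGF-b library and all 5 lower ones among the 10 called only in NC. Over the whole table these classes held 9041 of 9193 higher and 13701 of 14063 lower regions. Csrp2 had no listed region in this table.

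The second comparison asks how the signal differed once an siRNA was added to TGF-b. In the T set, 33 of 89 member regions (37.1%) were at least 2-fold higher with TGF-b+SiTAZ, beside 49.7% of all 180118 regions, and 12 (13.5%) were at least 2-fold lower, beside 16.2%. The median was 0.56 over the members and 0.97 over all regions. Relative to that median of all regions, the member median was -0.41, with 17 regions higher and 33 lower, so the direction depended on the centre chosen. For these 2 counts, too, no share of all regions is given on the centred scale. Here 58 regions were called only in the TGF-b+SiTAZ library and held 32 of the 33 higher regions, as 70.5% of all regions were called only there and held 85794 of the 89445 higher ones.

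Among S set regions, 4 of 22 member regions (18.2%) were at least 2-fold higher with TGF-b+SiSRF, beside 15.1% of all 52579 regions, and 6 (27.3%) were at least 2-fold lower, beside 27.8%. The median log2 ratio was -0.21 over the members and -0.21 over all regions, and with 1 region kept per run of overlapping windows it was 0.12, so its direction was not settled. The count of higher regions was 2 without Lpp, and also 2 with reads of 3 or fewer set to 3. All 4 higher regions were called only with TGF-b+SiSRF, and 5 of the 6 lower ones only with TGF-b, as were 7871 of 7958 higher and 14053 of 14609 lower regions of the table. Ldb3 and Pdlim7 had no listed region here. The TGF-b library enters both comparisons of its set, so the comparisons share it and the values of a region in the 2 are given side by side only.

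**Figure D1:**
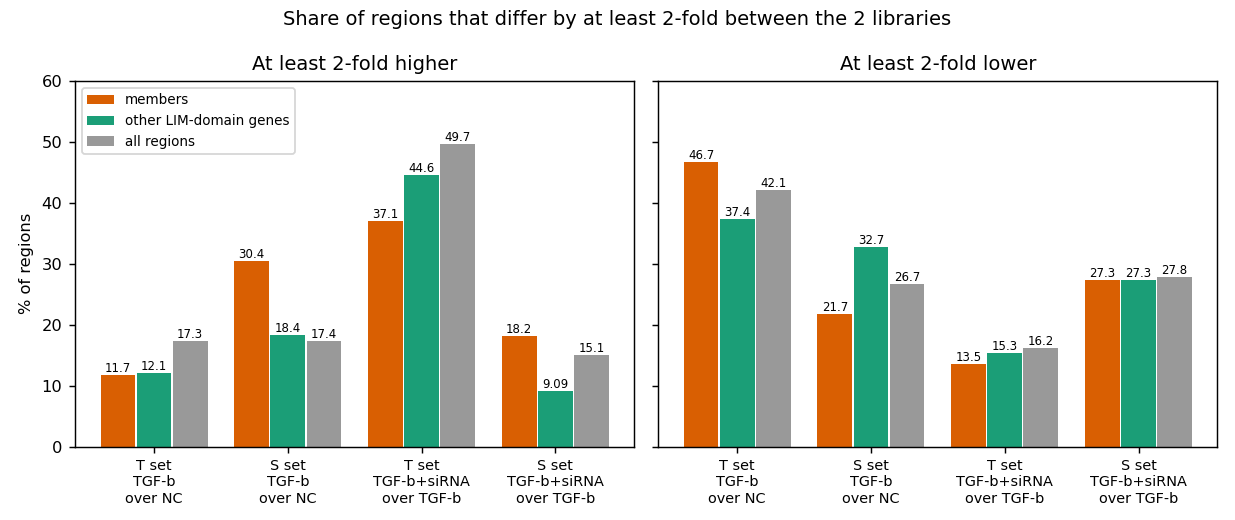
Percent of regions at least 2-fold higher (left) or lower (right) in each of the 4 comparisons, for the members, 37 other LIM-domain genes and all regions of the table; TGF-b+siRNA stands for TGF-b+SiTAZ in the T set and TGF-b+SiSRF in the S set. In the T set with TGF-b over NC, 46.7% of member regions were lower beside 42.1% of all regions.

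**Figure D2:**
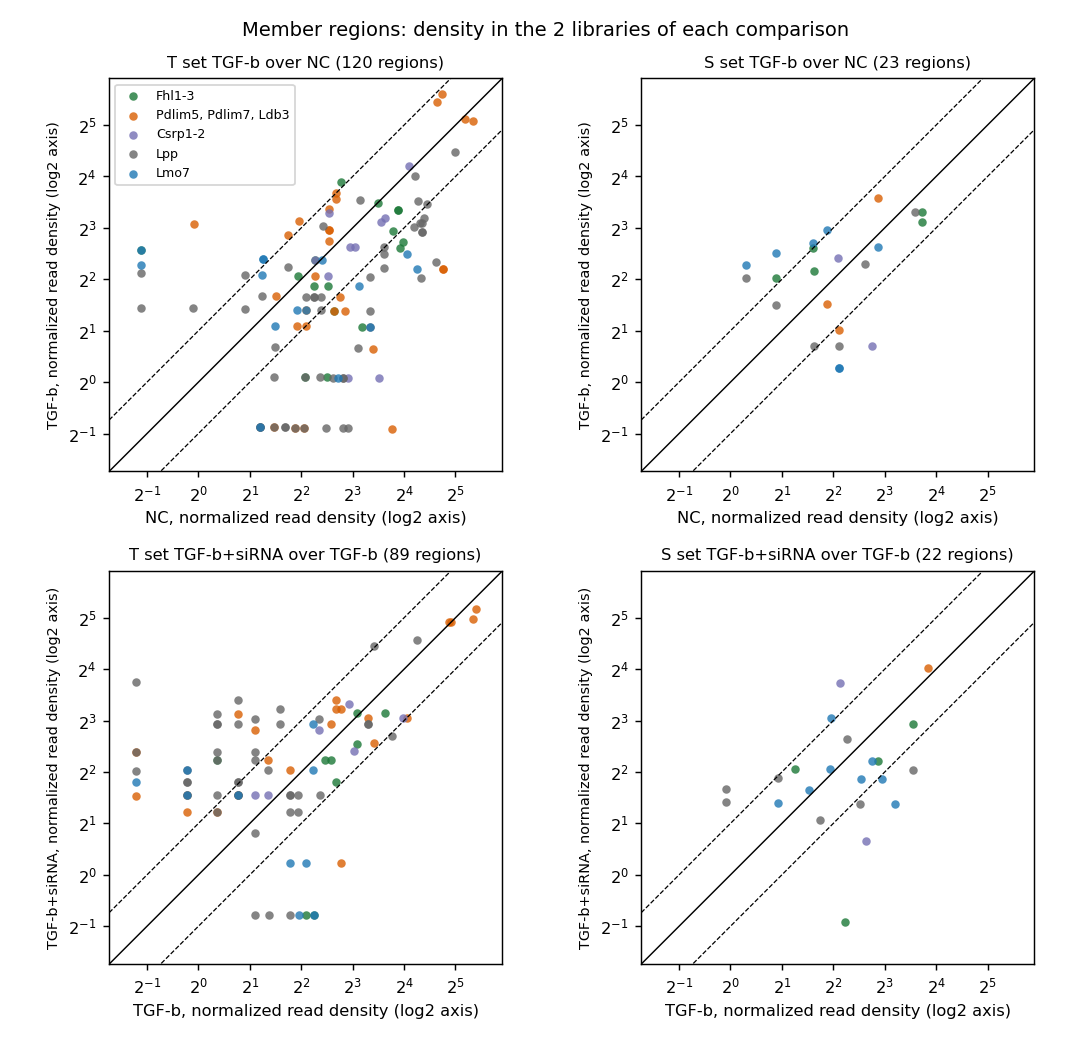
Normalized read density of each member region in the earlier (x) and later (y) library, both on log2 axes, 1 panel per comparison and 1 point per region; the solid line is equality and the dashed lines 2-fold. The densest points, at the top right of both T panels, are Pdlim5 and Pdlim7 regions; with TGF-b over NC the Pdlim5 points lie near the solid line and the Pdlim7 points, at log2 ratios of 0.81 and 0.88, just under the upper dashed line.

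Most member regions lay inside the genes. With TGF-b over NC, 106 of the T set's 120 member regions (88.3%) were annotated as intronic, beside 74.6% of the 101851 regions that carry a gene symbol, and 9 (7.5%) as promoter, beside 12.9%. For the S set, 18 of 23 (78.3%) were intronic beside 72.2%. Each member is described below through its lead region, that is the region with the highest mean density within 3 kb of a transcription start site (TSS) or, where there was none, the region nearest to a TSS. Coordinates of regions are on GRCm39, the build that the deposited coordinates fit, and distances run from the TSS to the centre of the region.

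Fhl2, a coactivator that binds SRF and other transcription factors, carried its lead region at the CArG-bearing start shown above. The T set region was chr1:43202990-43203159, in the 5' UTR 47 bases after the start, with 13 reads in NC, 28 with TGF-b and 14 with TGF-b+SiTAZ. The density went from 6.87 to 14.8 with TGF-b, a log2 ratio of 1.10 (0.23 to 2.09). This was one of 3 regions at least 2-fold higher among the 54 member regions with at least 20 reads in that comparison. With TGF-b+SiTAZ over TGF-b the log2 ratio was -0.48 (-1.44 to 0.38), from 12.3 to 8.83, and the centred ratio was -1.45 (-2.41 to -0.59). A peak was called at this T set region with TGF-b, but neither in NC nor with TGF-b+SiTAZ. That favours the rise as well as the fall, so both ratios are descriptions only. Among all T set regions, those with such a call had a median of 1.41 in the first comparison and -1.42 in the second. The S set region chr1:43203036-43203265, 29 bases before the same start, gave 21 reads in NC, 23 with TGF-b and 14 with TGF-b+SiSRF. Its log2 ratios were -0.42 (-1.26 to 0.43) with TGF-b and -0.61 (-1.59 to 0.29) with the siRNA, so neither interval excluded 0. It was the densest member region of the S set in the first comparison (densities of 13.3 and 9.93), above 96.9% of all regions there by its mean. The S set region beside it in the first intron, chr1:43202679-43202761, had 21 reads in NC and 20 with TGF-b, at a log2 ratio of -0.62 (-1.49 to 0.25), and since most of its window coincides with that of the promoter region it is not a separate measurement.

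Over all its regions, Fhl2 held 10 in the T set with TGF-b, of which 2 were at least 2-fold higher and 3 lower, beside 17.3% and 42.1% of all regions. The largest differences came from few reads. The intronic region chr1:43221309-43221405, chosen after its values were seen, held 0 reads in NC, 10 with TGF-b and 0 with TGF-b+SiTAZ. An intronic S set region at chr1:43191878-43192065 held 2, 9 and 0 reads in the same order of treatments, and it too was chosen after its values were seen.

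Fhl1, a FHL protein of striated muscle, had 4, 1, 2 and 1 regions in the 4 tables, in the order given above. Its lead region differed between them, and none of the 4 intervals excluded 0. With TGF-b in the T set it was an intron 3 region, chrX:55834355-55834504, with 9 reads in both libraries and a log2 ratio of 0.12 (-1.17 to 1.41). With TGF-b+SiTAZ that same region, called only with TGF-b, held 0 reads, a log2 ratio of -2.88 with an upper limit of -0.79. The lead region there was a promoter region 217 bases before a start, chrX:55776846-55777015, with 19 and 14 reads at a log2 ratio of 0.05 (-0.95 to 1.004). An intron 2 region, chrX:55818963-55819048, chosen after its values were seen and called only in NC, held 11 reads in NC and 1 with TGF-b (-2.40, -5.87 to -0.69). The S set's lead region with TGF-b lay in intron 1 at chrX:55790537-55790631, 13095 bases from a start, with 4 and 10 reads and a log2 ratio of 0.55 (-0.86 to 2.32). With TGF-b+SiSRF it was a promoter region, chrX:55831626-55831728, with 4 and 7 reads and a log2 ratio of 0.81 (-0.74 to 2.62).

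Fhl3, which binds actin and muscle transcription factors, had a lead-region ratio below 0 in the T set and above 0 in the S set with TGF-b, and neither interval excluded 0 both as deposited and when centred. The T set lead region, chr4:124597268-124597513 in intron 1, held 31 reads in NC, 12 with TGF-b and 7 with TGF-b+SiTAZ. The log2 ratios were -1.25 (-2.26 to -0.37) and -0.24 (-1.62 to 0.98), and the first became -0.59 (-1.61 to 0.28) when centred, an interval that includes 0. The Fhl3 promoter region in that set, chr4:124594113-124594211, chosen after its values were seen, held 27, 14 and 5 reads at ratios of -0.85 (-1.81 to 0.02) and -0.86 (-2.44 to 0.39). The single S set region, chr4:124595109-124595272 in intron 1, gave 4, 14 and 8 reads at ratios of 1.002 (-0.31 to 2.75) and -0.64 (-1.93 to 0.50). Its window shares 972 bases with that of the T set promoter region and none with that of the T set lead region, and the difference between sets was not tested.

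Pdlim5, also called Enigma homolog, tethers protein kinases to the actin lattice. Its promoter was among the densest places in the T set, and on the deposited scale its ratio did not differ from 0 beyond counting error in either comparison. The promoter region chr3:142101390-142101581 was centred 31 bases before the TSS that follows the sequence printed above. It held 78 reads in NC, 68 with TGF-b and 50 with TGF-b+SiTAZ. The densities were 40.4 and 33.7 in the first comparison, a log2 ratio of -0.26 (-0.73 to 0.21), and the mean density was above 99.7% of all regions. In the second they were 29.2 and 30.2, a log2 ratio of 0.05 (-0.48 to 0.57). The neighbouring intron 1 region, chr3:142100568-142100795, gave 70, 70 and 50 reads at ratios of -0.06 (-0.54 to 0.42) and 0.01 (-0.52 to 0.52). Its window overlaps that of the promoter region, so the 2 are not separate measurements. Relative to the median of all regions, the promoter region was at 0.39 (-0.08 to 0.86) with TGF-b and at -0.92 (-1.45 to -0.40) with TGF-b+SiTAZ, where the interval excluded 0. The neighbouring region, which was the lead region of the second T set table, was then at 0.59 (0.12 to 1.07) and -0.96 (-1.49 to -0.45), so the calls at this start depend on the centre chosen.

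The same Pdlim5 promoter gave the only S set region of the gene, chr3:142101383-142101573, with 11 reads in NC, 28 with TGF-b and 31 with TGF-b+SiSRF. The log2 ratio was 0.72 (-0.19 to 1.78; 0.92, 0.004 to 1.98, when centred) with TGF-b, from a density of 7.27 to 11.97, and 0.18 (-0.55 to 0.91) with the siRNA. In the second comparison it was the densest member region of the set, above 97.5% of all regions.

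Regions inside Pdlim5 had wider ratios than its promoter in the T set. With TGF-b 10 of its 20 regions were at least 2-fold lower, beside 42.1% of all regions, and 3 were higher, beside 17.3%, so the gene was near the table as a whole. Intron 8 region chr3:141969222-141969289 held 28 reads in NC and 0 with TGF-b, which is at least 6.43-fold lower when a count of 0 is set to 3 reads. Intron 2 region chr3:142066225-142066359 held 21 and 2 reads, a log2 ratio of -2.74 (-5.20 to -1.31). An exonic region, chr3:141955173-141955244 in exon 10, and the intron 9 region beside it, chr3:141955346-141955520, held the same 54 and 8 reads within overlapping windows, a log2 ratio of -2.57 (-3.76 to -1.66). These lower Pdlim5 regions were called only in the NC library, which favours a fall. All T set regions called only there had a median of -1.27. In the other direction, intron 3 region chr3:142038563-142038736 held 12 reads in NC, 24 with TGF-b and 9 with TGF-b+SiTAZ, with log2 ratios of 1.01 (0.08 to 2.04) and -0.86 (-2.03 to 0.13). Its neighbour chr3:142037822-142037887 held 38 reads with TGF-b and 13 with TGF-b+SiTAZ, a log2 ratio of -1.01 (-1.97 to -0.18).

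Pdlim7, or Enigma, is a PDZ and LIM adaptor at actin filaments, and by the mean density of both libraries it held the densest member region of the T set in both comparisons, although in NC alone it was not the densest, as the Pdlim5 promoter region at 40.4 shows. Intron 2 region chr13:55658541-55658949, 1777 bases after a start, held 51 reads in NC, 99 with TGF-b and 60 with TGF-b+SiTAZ. With TGF-b its density went from 26.6 to 48.9, a log2 ratio of 0.88 (0.41 to 1.38), the narrowest of the lead-region intervals that lay wholly above 0. With TGF-b+SiTAZ it went from 42.2 to 36.1, a log2 ratio of -0.22 (-0.69 to 0.23), whereas the centred ratio was -1.19 (-1.66 to -0.74) and excluded 0. Neighbouring regions within overlapping windows gave 48 and 88 reads with TGF-b over NC (chr13:55658282-55658355, chosen after its values were seen, a log2 ratio of 0.81) and 95 and 52 with TGF-b+SiTAZ over TGF-b (chr13:55658368-55658432, -0.37). The S set listed a different place, the promoter region chr13:55661273-55661357, with 6 and 4 reads and a log2 ratio of -1.08 (-2.90 to 0.54). Lower mean density was found for 15.4% of the S set's regions, so this promoter was among its weaker ones.

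Ldb3, the Z-disc protein Cypher or ZASP, has its best known role in cardiomyocytes. Its promoter, with the CArG letters printed above, was listed in the T set as chr14:34310617-34310708, 23 bases before a start, with 11 reads in NC and 19 with TGF-b. The log2 ratio was 0.81 (-0.18 to 1.91), and 1.47 (0.47 to 2.57) when centred. The second T set table lists a promoter region at a neighbouring start, chr14:34310407-34310475, which held 14 reads with TGF-b and 17 with TGF-b+SiTAZ, a log2 ratio of 0.73 (-0.25 to 1.75). Neither interval excluded 0 on the deposited scale. Among the 6 T set regions of Ldb3 with TGF-b, intron 2 region chr14:34307054-34307142 was at least 2-fold higher, with 7 and 16 reads and a log2 ratio of 1.19 (0.05 to 2.54), which was the largest such ratio among member regions with at least 20 reads. Intron 7 region chr14:34287842-34287966 held 12 reads in NC, 22 with TGF-b and 13 with TGF-b+SiTAZ, with log2 ratios of 0.89 (-0.05 to 1.94) and -0.25 (-1.26 to 0.68). The S set held 1 Ldb3 region, in intron 2 at chr14:34302932-34303014, with 5 and 6 reads and a log2 ratio of -0.37 (-1.96 to 1.29). No S set region lay at the Ldb3 promoter.

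**Figure D3:**
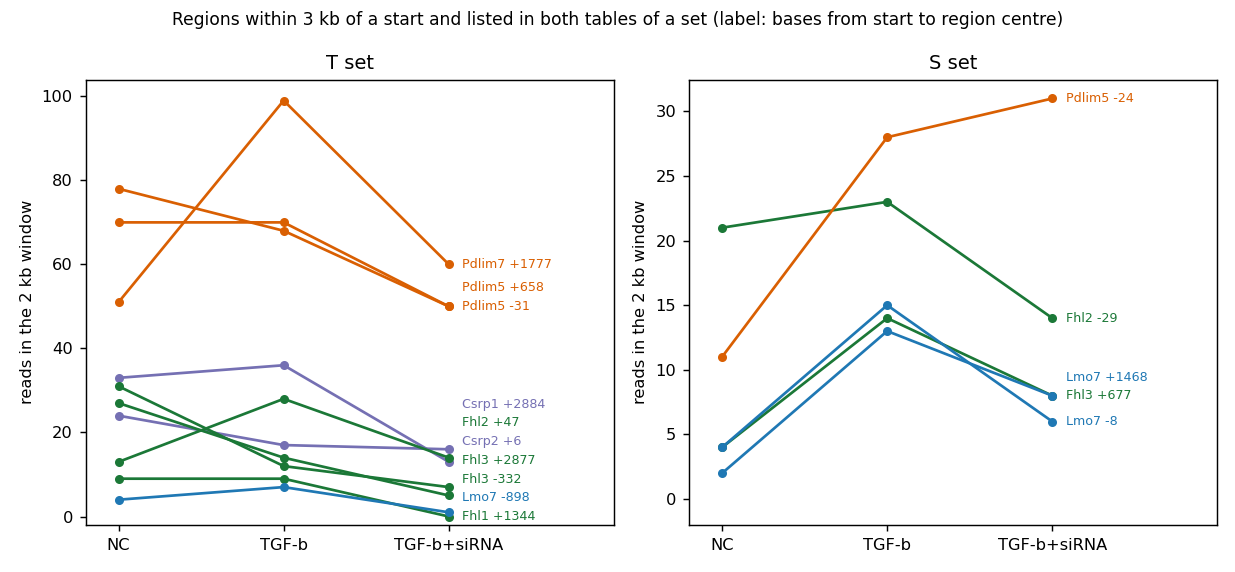
Reads in the 2 kb window (y, not scaled for library depth) in the NC, TGF-b and TGF-b+siRNA libraries for member regions within 3 kb of a start that were listed in both tables of the T set (left) or S set (right); each line is 1 region, labelled by gene and by bases from the start to its centre. Pdlim7 went from 51 to 99 to 60 reads in the T set, and Pdlim5 from 11 to 28 to 31 in the S set.

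Csrp1 and Csrp2 encode LIM proteins that bundle actin filaments, and Csrp2 is also called SmLIM for its place in smooth muscle. The Csrp2 start was the one place listed in both sets where they went opposite ways with both intervals clear of 0. The T set region chr10:110755894-110756226, at the start itself, held 33 reads in NC, 36 with TGF-b and 13 with TGF-b+SiTAZ. The log2 ratio was 0.12 (-0.55 to 0.80; 0.78, 0.10 to 1.46, when centred) with TGF-b and -0.93 (-1.90 to -0.10) with the siRNA, where the density went from 15.7 to 8.24. The S set region chr10:110755919-110756006 overlapped it by 88 bases and held 8 reads with TGF-b and 25 with TGF-b+SiSRF. Its density went from 4.38 to 13.4, a log2 ratio of 1.61 (0.60 to 2.84). This S set region was called only in the TGF-b+SiSRF library, which favours a higher value there. All S set regions called only there had a median of 0.54, while the T set region was called in both of its libraries. The S set table for TGF-b over NC lists no Csrp2 region, so no NC value is given there. A Csrp2 intron 1 region in the T set, chr10:110763547-110763654, gave 11, 18 and 8 reads at ratios of 0.74 (-0.27 to 1.85) and -0.62 (-1.88 to 0.46).

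Csrp1 had its lead T set region in intron 1, chr1:135659682-135659856, 2884 bases after a start, with 24 reads in NC, 17 with TGF-b and 16 with TGF-b+SiTAZ. The log2 ratios of -0.42 (-1.33 to 0.43) and 0.38 (-0.59 to 1.35) were within counting error. Another intron 1 region, chr1:135650410-135650549, was called only in the NC library and held 23 reads in NC and 1 with TGF-b. The log2 ratio of -3.43 (-6.92 to -1.83) was the second lowest among member regions with at least 20 reads. The Csrp1 S set lead region, chr1:135661774-135662093, lay 5048 bases after a start inside the gene and 14.1 kb from the outermost one. It held 6 reads in NC, 12 with TGF-b and 2 with TGF-b+SiSRF. The log2 ratio was 0.31 (-0.94 to 1.78) with TGF-b and -1.98 (-4.45 to -0.46) with the siRNA. Neither set listed a region within 1 kb of a Csrp1 start.

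**Figure D4:**
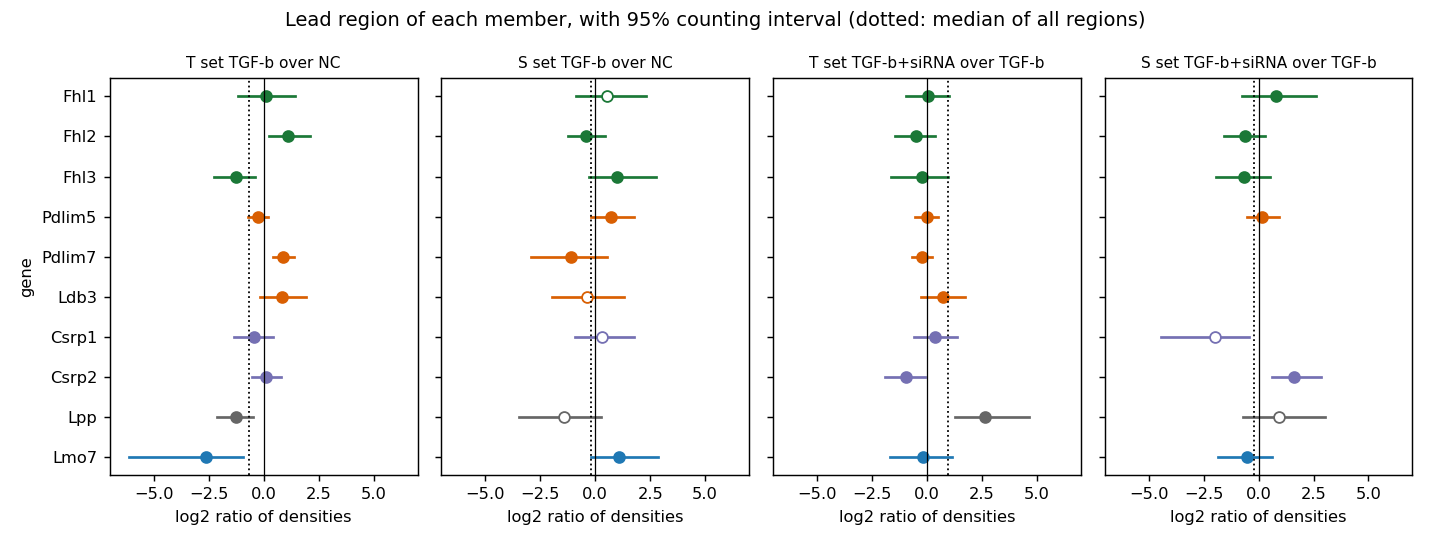
Log2 ratio of densities at the lead region of each gene, 1 panel per comparison, with 95% intervals that cover counting error only; filled points lie within 3 kb of a start, open points are the region nearest to a start, and the dotted line is the median of all regions of the table. In the T set with TGF-b over NC, 2 intervals lay above 0 (Fhl2 and Pdlim7) and 3 below (Fhl3, Lpp and Lmo7), and relative to the dotted line 4 lay above (Fhl2, Pdlim7, Csrp2 and Ldb3) and 1 below (Lmo7).

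Lpp, the lipoma preferred partner, links focal adhesions to actin and carries signals to the nucleus. It gave the longest list, 51 regions in 41 runs of overlapping windows in the T set with TGF-b. With TGF-b 31 of the 51 were at least 2-fold lower and 4 higher, at a median log2 ratio of -1.30, and with TGF-b+SiTAZ over TGF-b 23 of 42 were higher and 4 lower, at a median of 1.04. Over all regions the medians were -0.65 and 0.97, with 42.1% lower and 17.3% higher in the first comparison and 49.7% higher and 16.2% lower in the second. Without Lpp, an alternative added after seeing the data, the median of the members was -0.44 in the first comparison, and 25 of the other 69 regions were lower. That median lay above the -0.65 of all regions, whereas the median with Lpp lay below it.

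At an Lpp start inside the gene's span, the promoter region chr16:24266697-24266799 held 40 reads in NC and 16 with TGF-b, a density of 20.3 against 8.59 and a log2 ratio of -1.24 (-2.12 to -0.47). Centred, it was -0.59 (-1.47 to 0.18), which includes 0, so the call depends on the centre. The 5' UTR and intron regions beside it share its window in part and both held 40 and 14 reads. In the second T set table the lead region lay upstream, at chr16:24265131-24265251, 1650 bases before the start, with 3 reads with TGF-b and 17 with TGF-b+SiTAZ, a log2 ratio of 2.63 (1.28 to 4.63). The largest ratio of any member region with at least 20 reads was in intron 7, chr16:24572018-24572135, with 0 and 22 reads, which is at least 7.84-fold higher when a count of 0 is set to 3. Intron 5 region chr16:24462101-24462171 held 6 and 15 reads (1.65, 0.46 to 3.10) and intron 3 region chr16:24313729-24313806 held 24 and 36 (1.04, 0.32 to 1.80). Both of these intervals included the 0.97 median of all regions, so neither call held when centred. The Lpp regions named here as higher with TGF-b+SiTAZ were called only in that library, which favours a rise. All T set regions called only there had a median of 1.62. The intron 1 region chr16:24246930-24247064 went the other way, with 36 reads in NC, 31 with TGF-b and 10 with TGF-b+SiTAZ, and log2 ratios of -0.20 (-0.90 to 0.48) and -1.07 (-2.17 to -0.16).

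In the S set no Lpp region lay within 3 kb of a start. The densest, chr16:24402112-24402684 in intron 4, held 19 reads in NC, 23 with TGF-b and 7 with TGF-b+SiSRF, with log2 ratios of -0.28 (-1.14 to 0.59) and -1.50 (-2.82 to -0.45). The T set listed the same place, chr16:24402110-24402359, at 24, 11 and 4 reads and with ratios of -0.99 (-2.07 to -0.05) and -0.81 (-2.58 to 0.57). Both sets were lower with the siRNA than with TGF-b alone there, and the T set interval included 0. The T set calls there depend on the centre. With TGF-b the interval included the -0.65 median of all regions, and with TGF-b+SiTAZ it lay wholly below the 0.97 median. A second intronic place listed in both sets, chr16:24448302-24448462 in the S set, had 9, 11 and 4 reads and ratios of -0.31 (-1.52 to 0.95) and -1.14 (-2.91 to 0.23). The T set region there, chr16:24448387-24448462, had 3 reads with TGF-b and 12 with TGF-b+SiTAZ, a log2 ratio of 2.15 (0.73 to 4.18). That interval included the 0.97 median of all regions. The densest Lpp region of the T set with TGF-b, chr16:24552124-24552390 in intron 7, was chosen after its values were seen and had 62 reads in NC, 44 with TGF-b and 39 with TGF-b+SiTAZ, at ratios of -0.52 (-1.08 to 0.02) and 0.31 (-0.31 to 0.92). The lead regions in the S set held 6 and 3 reads (chr16:24552236-24552334, -1.41, -3.47 to 0.26) with TGF-b, and 3 and 6 (chr16:24219540-24219665, 0.95, -0.72 to 3.01) with the siRNA.

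**Figure D5:**
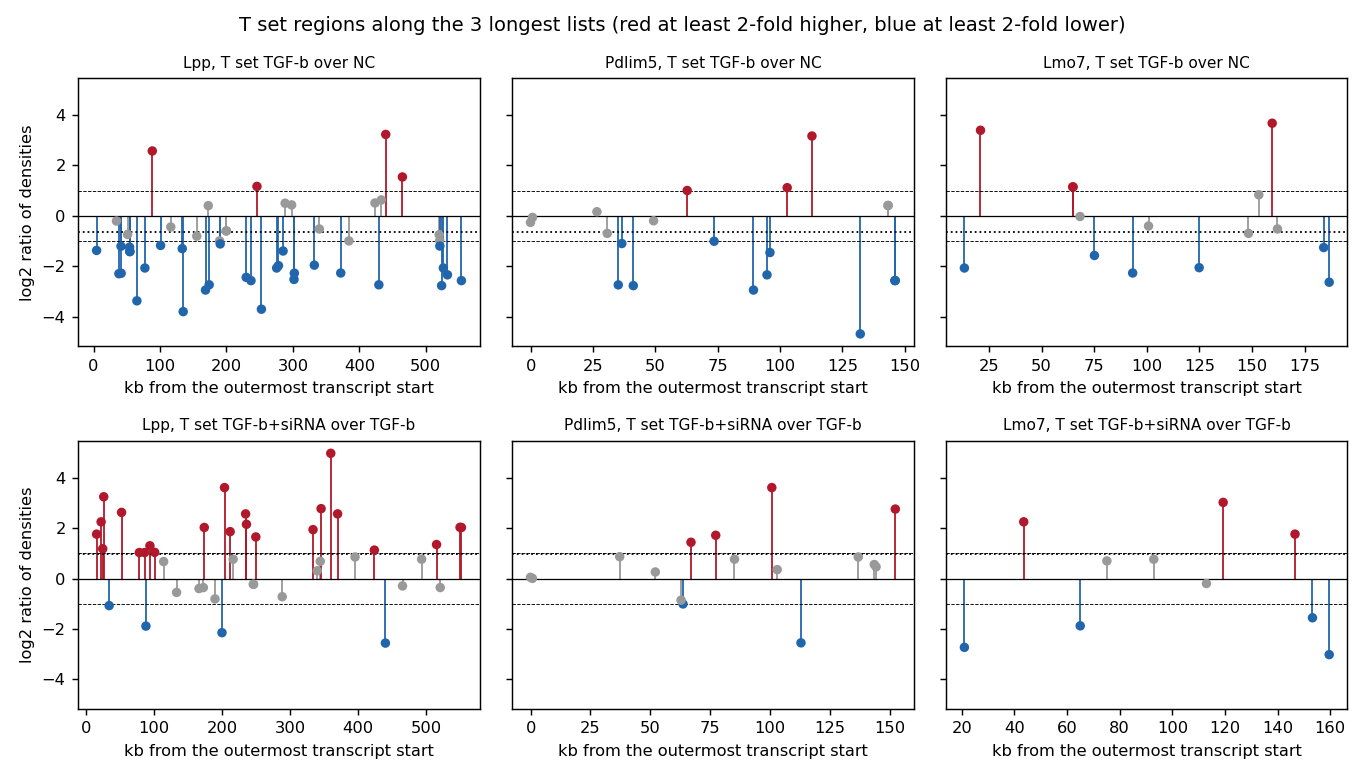
Log2 ratio of each T set region of Lpp, Pdlim5 and Lmo7 (y) against its distance in kb from the outermost transcript start named in the tables (x), with TGF-b over NC above and TGF-b+siRNA over TGF-b below; dashed lines mark 2-fold and the dotted line the median of all regions. In Lpp 31 of 51 regions were at least 2-fold lower with TGF-b, spread over the whole gene, and the Pdlim5 regions at its start stayed near 0 on the deposited scale.

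Lmo7, a junction protein with a LIM domain that binds emerin at the nuclear envelope, was the member with the most S set regions. With TGF-b 4 of its 7 S set regions were at least 2-fold higher, where 17.4% of all regions were, and 2 were lower, where 26.7% were. All 4 higher regions were called only in the TGF-b library and the other 3 only in NC, and 2 of the 4 held 1 or 2 reads in NC. The promoter region chr14:102121424-102121670, 8 bases before a start inside the gene, held 4 reads in NC, 15 with TGF-b and 6 with TGF-b+SiSRF. The log2 ratios were 1.10 (-0.20 to 2.84; 1.29, 0.002 to 3.04, when centred) and -1.09 (-2.54 to 0.10). Intron 15 region chr14:102144718-102144933 gave 5, 18 and 4 reads at ratios of 1.09 (-0.10 to 2.65) and -1.82 (-3.56 to -0.57), and intron 7 region chr14:102119668-102119823 gave 2, 13 and 8 at ratios of 1.63 (0.12 to 4.09) and -0.54 (-1.84 to 0.63). Its intron 1 region chr14:102019790-102020046 held 7 reads with TGF-b and 15 with TGF-b+SiSRF, a log2 ratio of 1.10 (-0.06 to 2.45). Both ratios of each of these regions use the same TGF-b library.

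Lmo7 was mixed in the T set, with 4 of 15 regions higher and 6 lower with TGF-b, beside 17.3% and 42.1% of all regions, and 3 of 10 higher and 4 lower with TGF-b+SiTAZ, beside 49.7% and 16.2%. Its lead region with TGF-b, chr14:102154043-102154114 in intron 20, held 13 reads in NC and 1 with TGF-b, a log2 ratio of -2.63 (-6.10 to -0.95). With TGF-b+SiTAZ the lead region was in intron 4, chr14:102080315-102080380, with 10 and 6 reads and a log2 ratio of -0.20 (-1.68 to 1.12). The intron 2 place listed in both sets held 33 and 10 reads in the T set (chr14:102042408-102042621, -1.57) and 11 and 14 in the S set (chr14:102042453-102042540, -0.24, -1.33 to 0.89).

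Across the lead regions, 2 of 10 intervals lay above 0 and 3 below in the T set with TGF-b, 0 of 9 either way in the S set, 1 above and 1 below of 10 in the T set with TGF-b+SiTAZ, and 1 above and 1 below of 8 in the S set with TGF-b+SiSRF. Over all regions, in the same order of comparisons, 14.8%, 11.5%, 38.9% and 10.2% of intervals lay above 0 and 31.1%, 19.2%, 11.4% and 21.8% below. After centring, lead regions above and below numbered 4 and 1, 2 and 0, 1 and 4, and 1 and 1, where 22.9%, 16.1%, 15.7% and 14.6% of all regions lay above and 15.5%, 15.2%, 24.1% and 16.0% below. The sets rarely marked the same place. With TGF-b over NC, 5 T set member regions overlapped an S set region by at least 1 base. That was 4.17% of the T set's member regions, beside 4.54% of its regions that carry a gene symbol, and 21.7% of the S set's, beside 16.6%. In the second comparison the shares were 5.62% beside 5.76% and 22.7% beside 20.9%, so the T set's shares lay just below those of all regions with a symbol and the S set's above, on 5 places in each. The shared places were at the starts of Fhl2, Pdlim5 and Csrp2 and in introns of Lpp and Lmo7.

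A list of 37 other LIM-domain genes, which includes Zyx, Pxn, Lasp1 and Csrp3, was counted for comparison. Among their 265 T set regions with TGF-b, 32 (12.1%) were at least 2-fold higher and 99 (37.4%) lower, at a median log2 ratio of -0.58. With TGF-b+SiTAZ 111 of 249 (44.6%) were higher and 38 (15.3%) lower, at a median of 0.75. Of their S set regions 9 of 49 (18.4%) were higher and 16 (32.7%) lower with TGF-b, at a median of -0.12. With TGF-b+SiSRF 5 of 55 (9.09%) were higher and 15 (27.3%) lower, at a median of -0.04. The shares of higher regions in the T set lay below those of the table as a whole in both lists, and the difference between lists was not tested.

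The label of the cells was checked only by which marker genes had a region within 3 kb of a start, since these libraries measure chromatin and not transcripts. Of 5 fibroblast markers, 3 had one in each T set table (Col1a1 and Dcn in both), 1 in the S set with TGF-b over NC and 0 with TGF-b+SiSRF over TGF-b. Of 3 cardiomyocyte markers 2 or 3 had one in every table, as did 1 or 2 of 2 endothelial markers and the leukocyte marker Ptprc. A listed region therefore did not separate the cell types, and the part of other cells in the member values was not tested.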

How the data were processed

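CUT&Tag was performed by the authors on 1 library per treatment in each of 2 sets of primary mouse cardiac fibroblasts. Per the study's methods reads were aligned with Bowtie2 to GRCm39 and peaks were called with MACS2. The submitters' processing notes instead name BWA 0.7.12 and mm10. All 39 member transcripts named in the files were found in GENCODE M21 (GRCm38), and 0 had the same coordinates there, so the deposited coordinates were read as GRCm39, and only promoter sequences matched by symbol were taken from GRCm38.p6.

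The deposited values are a signal, the normalized read density in a 2 kb window around each region of the 2 libraries compared. From the values, a density is 0.5 times the reads plus 1, from which the authors had removed a straight line in mean log2 density. That line was fitted back (intercepts of the removed line, -0.26, 0.64, -0.43 and -0.20 on the log2 scale in the order T and S set with TGF-b, then T and S set with siRNA) and whole reads were recovered to within 0.1 read. The reads of the TGF-b library were equal in 99.98% (T set) and 99.95% (S set) of regions shared by its 2 tables. The authors' own comparison columns (M and A values, log2 fold changes and p-values) were not used.

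Regions were grouped by sample label and deposited gene symbol. With 1 library per group no test across regions was run, since regions are not replicates. Counts at a 2-fold threshold and medians are given beside all regions of the same table. Named regions were the lead regions, up to 5 of the largest rises and falls per table among member regions with at least 20 reads over both libraries, and the 3 densest. Places listed in both sets were added, and any other region is marked as chosen after its values were seen. Alternatives were centring on the median of all regions, no line, reads of 3 or fewer set to 3, at least 20 reads, a threshold of 1.5-fold and an overlap of 50% of the shorter region. The members and lists were chosen with earlier results of these data known. Read recovery was tested on simulated data. Calculations used Python 3.11.15 with pandas 2.3.3, numpy 2.4.6 and scipy 1.17.1, and figures matplotlib 3.10.9.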

Additional observations from a re-analysis of the deposited data

Results flagged for a closer look

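At the start of Csrp2 the sets went opposite ways with siRNA. For the T set (36 reads with TGF-b, 13 with TGF-b+SiTAZ) the log2 ratio was -0.93, and for the S set (8 with TGF-b, 25 with TGF-b+SiSRF) it was 1.61. The intervals for counting error excluded 0 on opposite sides. The S set region was called only in the TGF-b+SiSRF library, which favours a higher value there, and the T set region in both libraries. There was 1 library per treatment and set, and this difference was not tested.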

How the results depend on the processing

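No paired analysis was possible because each group held 1 library. Of 158 alternative values, 127 stayed within their limits and the rest are given here; the cause was not tested unless fewer regions entered. The limits were 1.5 times the main value for a count, and for a ratio, median or share its own 95% interval. With ratios centred on the table's median, the T set median with TGF-b was -0.19 in place of -0.84 and that with TGF-b+SiTAZ was -0.41 in place of 0.56, a reversal. The counts higher and lower became 27 and 37 (from 14 and 56) with TGF-b, and 17 and 33 (from 33 and 12) with TGF-b+SiTAZ. No share of all regions is given beside these centred counts. The lead regions of Pdlim5 (0.39) and Pdlim7 (1.53) moved with TGF-b, as did those of Fhl2 (-1.45), Pdlim5 (-0.96), Pdlim7 (-1.19) and Csrp2 (-1.90) with TGF-b+SiTAZ. Without the authors' line, the count of lower regions was 3 in the S set with TGF-b (from 5) and 20 in the T set with TGF-b+SiTAZ (from 12), and the Pdlim7 lead region there was -0.71. With reads of 3 or fewer set to 3, higher regions numbered 4 (from 7) in the S set with TGF-b and 2 (from 4) with TGF-b+SiSRF, and lower regions 5 (from 12) in the T set with TGF-b+SiTAZ. With at least 20 reads, where fewer regions entered, higher and lower regions numbered 3 and 25 of 54 (T set, TGF-b), 1 and 0 of 7 (S set, TGF-b), 4 and 2 of 29 (T set, TGF-b+SiTAZ) and 2 and 3 of 10 (S set, TGF-b+SiSRF). No share of all regions at that depth is given, so these counts have no background beside them. At a 1.5-fold threshold 10 regions in place of 6 were lower in the S set with TGF-b+SiSRF. Added after seeing the data, leaving out Lpp gave a T set median of -0.44 with 25 lower regions with TGF-b, 10 higher regions with TGF-b+SiTAZ and 2 higher regions in the S set with TGF-b+SiSRF. Keeping 1 region per run of overlapping windows, also added, moved none of these counts or medians beyond their limits. Of 98 alternative medians and lead-region ratios, 15 changed sign (4 medians and 11 lead regions), among them the T set median and the Pdlim5 lead region on centring, given above. The S set median with TGF-b turned from -0.24 to 0.32 without the line and 0.31 without Lpp, and that with TGF-b+SiSRF from -0.21 to 0.12 with 1 region per run. Lead regions turned on centring for Csrp1 (0.23 with TGF-b, -0.59 with TGF-b+SiTAZ), Fhl1 (-0.92) and Ldb3 (-0.24) with TGF-b+SiTAZ, and without the line for Fhl2 (0.13) and Ldb3 (0.22) in the S set with TGF-b and Fhl1 (-0.42), Pdlim5 (-0.48) and Csrp1 (-0.08) in the T set with TGF-b+SiTAZ. In 37.5%, 43.5%, 50.6% and 31.8% of member regions (T and S set with TGF-b, then with siRNA) one library held 3 reads or fewer, which limits single ratios. Over all regions these shares were 49.3%, 27.5%, 57.9% and 26.8%.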
